A study of Mus musculus with 14 samples.

Results

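The Hox genes are homeobox transcription factors that specify position along the body axis. All 39 protein-coding genes of the 4 mouse Hox clusters were described here in ovarian tumor cells, selected by name from a table of 35275 genes. Hoxa, on chromosome 6, held 11 members, Hoxb, on chromosome 11, held 10, Hoxc, on chromosome 15, held 9, and Hoxd, on chromosome 2, held 9. The rule used names only and no measured value, though earlier results of these data were known when it was set.

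RNA was sequenced from 5 lines of KMF cells, aggressive murine ovarian tumor cells derived from the ID8 line (C57Bl6 strain) by passage in mice. All lines were grown without anchorage as tumorspheres for 5 days in PromoCell XF medium. The comparisons asked what loss of focal adhesion kinase (FAK, encoded by Ptk2) changes in the transcriptome, and what returns when FAK, a kinase-inactive FAK or active β-catenin is put back. KMF cells carried wildtype FAK (n = 3). FAK KO was a CRISPR clone, KT13, lacking FAK (n = 3). FAK-WT was KT13 re-expressing GFP-FAK from a lentivirus (n = 3). FAK-R454 was KT13 re-expressing GFP-FAK with the kinase-inactivating R454 mutation (n = 2). β-catenin ΔGSK was KT13 expressing a β-catenin without its GSK3β phosphorylation sites (n = 3). The 4 engineered lines therefore share the deletion and the history of 1 clone. An effect of the deletion cannot be told apart from a difference of that clone from the KMF population. By the study's methods, the lines given a construct were also transduced with virus, selected with a drug and enriched by flow cytometry. No line with an empty vector was among the samples. Against FAK KO, an effect of a construct therefore cannot be told apart from an effect of that handling. The labels call the RNA samples independent and do not say whether they came from separate cultures, so the p-values below measure the spread between these samples.

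The 14 libraries held 25390558 to 35289859 fragments each. Ptk2 was present at 23.9 to 24.8 FPKM in KMF and at 17.6 to 20.5 FPKM in FAK KO, where a count over the whole gene does not separate edited from intact transcripts. It was at 42.3 to 45.4 FPKM in FAK-WT and 59.2 to 65.5 FPKM in FAK-R454, and at 15.1 to 15.9 FPKM in β-catenin ΔGSK. Ctnnb1, which encodes β-catenin, was at 207 to 223 FPKM in β-catenin ΔGSK, 139.5 to 148 FPKM in FAK KO and 195 to 207 FPKM in KMF. Of 10 mesothelial and ovarian surface epithelial markers, 8 exceeded 1 FPKM in some line, with summed levels of 1077 to 1821 FPKM over all samples. Cd3e was at 0 in every sample and the endothelial markers Cdh5 and Kdr did not exceed 1 FPKM in any line, but the endothelial Pecam1 and the macrophage marker Cd68 reached line means of 1.17 and 8.62 FPKM, both in FAK-WT. Levels are FPKM, the count of sequenced fragments scaled by transcript length and by library depth, so that genes can be compared with each other. KMF sample 3 and FAK-WT sample 3 stood apart from the other samples of their lines over all genes, and in Hoxd8 and Hoxd9. The chi-square per gene between fragment counts was 5.14 for KMF samples 1 and 2 but 28 and 34.2 for the pairs with sample 3, and 3.45 for FAK-WT samples 1 and 2 but 50.5 and 36 with sample 3. In FAK KO it was 9.3 to 26, in β-catenin ΔGSK 9.8 to 34.8, and 3.82 for the FAK-R454 pair.

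Hox clusters are read in order. Genes at the 3′ end of a cluster (low numbers, such as Hoxd3) are used early and anteriorly in the embryo, and genes at the 5′ end (high numbers, such as Hoxa13 and Hoxc13) late and posteriorly. Polycomb complexes keep silent parts of a cluster repressed, trithorax-type complexes maintain the active parts, retinoic acid activates the 3′ genes, and Hox proteins bind DNA together with TALE homeodomain partners of the Pbx, Meis and Pknox families. In the female tract, Hoxa9, Hoxa10, Hoxa11 and Hoxa13 pattern the oviduct, uterus, cervix and vagina in sequence.

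The DNA in front of 4 of these genes is shown because they carry the abundant transcripts (Hoxd8 and Hoxd9) or the loss and partial return of expression described below (Hoxa5 and Hoxa6). Each run is taken from the 250 bases before the RefSeq start on GRCm38.p6, 5′ to 3′ on the strand of the gene and only up to the gene span of the deposited table, with matches to the TCF/LEF motif in capitals.
Hoxd8 (chr2:74704365-74704614, + strand): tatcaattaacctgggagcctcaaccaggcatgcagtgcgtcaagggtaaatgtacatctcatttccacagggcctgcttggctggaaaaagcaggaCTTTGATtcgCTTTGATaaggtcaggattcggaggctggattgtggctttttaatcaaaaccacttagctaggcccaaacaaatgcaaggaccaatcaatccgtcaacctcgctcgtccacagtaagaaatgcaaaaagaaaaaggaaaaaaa
Hoxd9 (chr2:74697513-74697726, + strand): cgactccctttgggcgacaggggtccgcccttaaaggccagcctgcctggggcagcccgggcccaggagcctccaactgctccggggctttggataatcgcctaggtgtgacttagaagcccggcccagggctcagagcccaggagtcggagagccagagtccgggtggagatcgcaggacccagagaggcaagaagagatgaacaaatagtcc
Hoxa5 (chr6:52204588-52204837, - strand): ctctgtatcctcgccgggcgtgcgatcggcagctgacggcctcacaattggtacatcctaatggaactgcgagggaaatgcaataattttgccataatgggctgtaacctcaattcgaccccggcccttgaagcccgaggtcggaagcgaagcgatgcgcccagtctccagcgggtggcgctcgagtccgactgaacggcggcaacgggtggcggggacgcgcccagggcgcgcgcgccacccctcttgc
Hoxa6 (chr6:52208723-52208922, - strand): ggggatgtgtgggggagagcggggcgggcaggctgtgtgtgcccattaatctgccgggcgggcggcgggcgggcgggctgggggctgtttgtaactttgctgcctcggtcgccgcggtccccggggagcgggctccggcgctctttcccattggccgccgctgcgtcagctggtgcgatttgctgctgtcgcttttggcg

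RefSeq promoters were matched for 22 of the 39 members, 24 windows of 250 bases in all. The TCF/LEF motif CTTTGAT, the sequence bound by the DNA-binding partners of β-catenin, was searched on both strands, and 1 of the 24 windows held it against 3.205% of 32851 promoters of the same length. That window was Hoxd8, with 2 matches 3 bases apart. The PBX-HOX motif TGATNNAT was in 4 of 24 windows against 7.683% of all promoters, and the TATA box TATAAA in 4 of 24 against 12.368%. TCF/LEF and PBX-HOX matches can overlap at the letters TGAT, and none did in the Hoxd8 window, which held no PBX-HOX match. The median window of a Hox gene held 12.5 CpG dinucleotides, against 6.0 for all promoters, and the full windows of Hoxa5, Hoxa6, Hoxd9 and Hoxd8 held 28, 24, 13 and 6. A match is a string of letters and was not tested as a binding site.

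Hoxd and Hoxc genes made up most of the Hox transcripts in every line, Hoxa genes were low, and Hoxb genes were at or near 0. Summed over its members, Hoxd reached 45.2 ± 8.43 FPKM in KMF (mean ± SD, n = 3), Hoxc 17.6 ± 0.796, Hoxa 5.04 ± 0.543 and Hoxb 0.164 ± 0.0247. Over the 14 libraries the clusters gave 39392 fragments from Hoxd, 15747 from Hoxc, 3780 from Hoxa and 78 from Hoxb. Of the 39 members, 10 had a mean above 1 FPKM in some line (2 in Hoxa, 5 in Hoxc, 3 in Hoxd), 10 peaked between 0.1 and 1 FPKM (6 in Hoxa, 3 in Hoxc, 1 in Hoxd), and 19 stayed at or below 0.1 FPKM in every line mean. The 12 detected members of that low group held few fragments over all 14 libraries, 50 for Hoxa2, 4 for Hoxa4, 9 for Hoxc11, 12 for Hoxd10 and 1 (Hoxb13) to 23 (Hoxb6) for 8 Hoxb genes. The other 7 had no fragment in any sample, Hoxa11, Hoxb1, Hoxb2, Hoxd1, Hoxd11, Hoxd12 and Hoxd13. For these 7, a count of 0 over the samples of a line allows up to 0.00966 to 0.0271 FPKM, depending on gene length and line, and for a detected member at 0 in a line the limit reached 0.0317 FPKM (Hoxa4 in FAK-R454; 3 fragments, counting error only). Hoxb6 had 15 of its 23 fragments in KMF and 1 in β-catenin ΔGSK, and no Hoxb gene was deep enough for a comparison between lines.

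**Figure D1:**
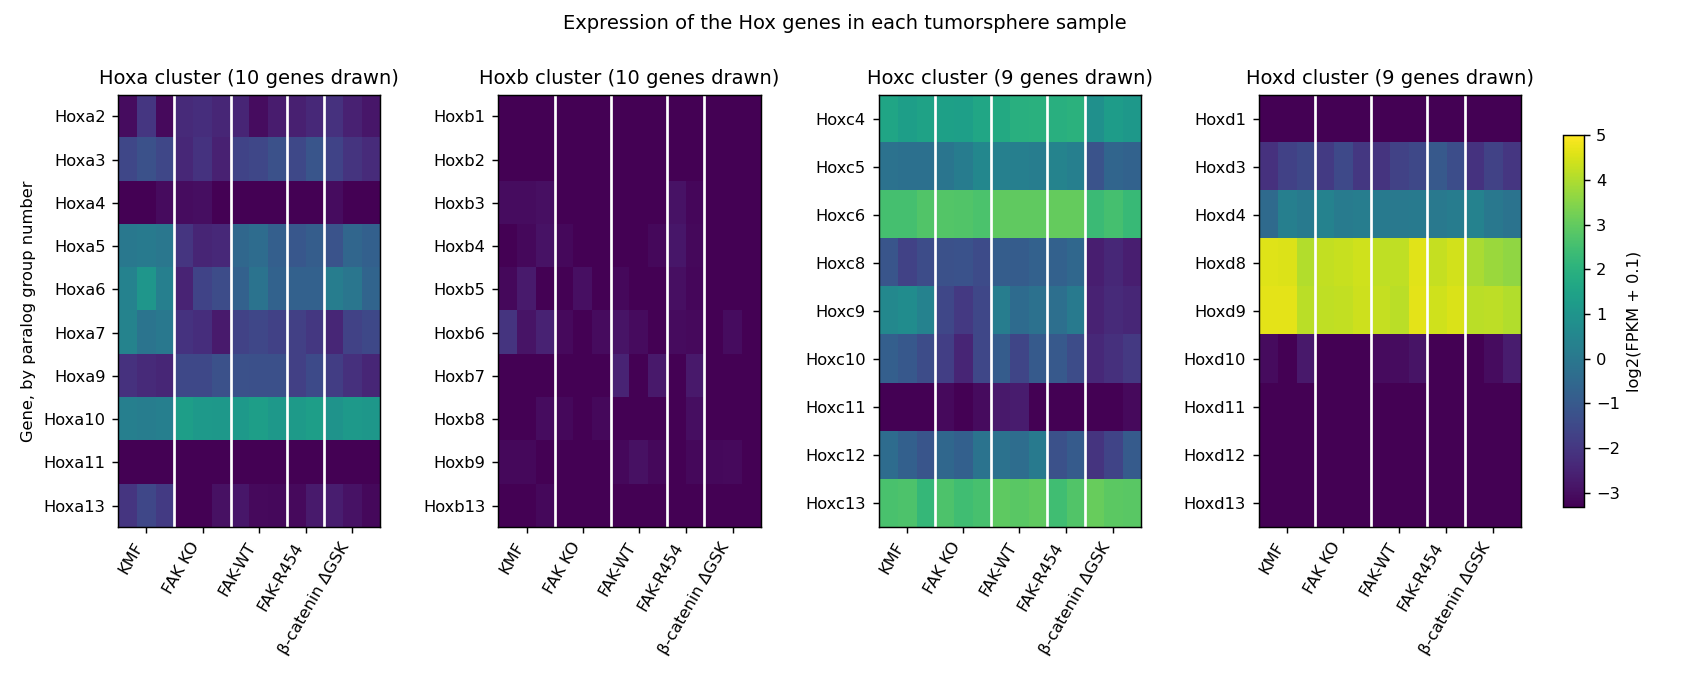
Expression of 38 of the 39 Hox genes as log2(FPKM + 0.1), with 1 panel per cluster, genes in rows by paralog number and the 14 samples in columns by line. Hoxd8 and Hoxd9 are the brightest rows in every sample, the 10 Hoxb rows are dark throughout, and the Hoxa rows change between the KMF columns and those of the clone-derived lines.

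Expression along the clusters was not graded from one end to the other. In Hoxd, adjacent Hoxd8 and Hoxd9 stood at 21.4 and 22.7 FPKM in KMF while the genes 5′ of them, Hoxd10 to Hoxd13, held 12 fragments in all libraries together, all from Hoxd10. Hoxd4 had 0.632, 1.12 and 0.985 FPKM in KMF, but 52.3% of its exonic bases are shared with Hoxd3, a readthrough gene and the antisense RNA Hoxd3os1, and the library kit does not mark strand. Hoxd3 had line means of 0.164 (β-catenin ΔGSK) to 0.344 FPKM (FAK-R454), shares 62.8% of its exonic bases, and passed in none of the 6 comparisons of the wider test described below. In Hoxc, the most anterior gene Hoxc4, the central Hoxc6 and the most posterior Hoxc13 were expressed, and Hoxc11 between Hoxc6 and Hoxc13 had 9 fragments in all 14 libraries. Hoxc13, known for hair and nail keratin regulation, had 5.98, 6.32 and 4.58 FPKM in KMF, and Hoxc6 had 5.79, 5.69 and 6.6 FPKM. Their ranges overlapped, so the order of this pair is not resolved in KMF. In Hoxa, Hoxa10 was the most abundant member in the 4 clone-derived lines, at means of 2.22, 2.22, 2.32 and 1.99 FPKM with the FAK deletion alone, GFP-FAK, GFP-FAK-R454 and active β-catenin. In KMF the means of Hoxa6, Hoxa10, Hoxa7 and Hoxa5 lay close together at 1.42, 1.08, 0.985 and 0.927 FPKM, and the samples of each gene overlapped with those of its neighbour in this order.

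Most of the Hox genes that differed between FAK KO and KMF lay in Hoxa, and they differed in both directions along the cluster. The central genes Hoxa5, Hoxa6 and Hoxa7 were lower in FAK KO, and Hoxa9 and Hoxa10 toward the 5′ end were higher. Of the Hoxc genes, Hoxc9 was much lower in FAK KO, and no Hoxd gene passed the test. Tests are limma on log2(FPKM + 0.1) over all genes with a mean above 1 FPKM in either line compared, with Benjamini-Hochberg adjustment, and a gene is called where adjusted p is under 0.05, the log2 fold change is 1 or more in size and the higher line exceeds 1 FPKM. Fold changes on this scale understate those of low genes. Of the 10 members tested, 0 were called higher and 2 lower in FAK KO, against 4.04% higher and 3.97% lower of all genes tested. Hoxa6 and Hoxc9 passed the filter on low values only through KMF, so that a call could only be lower, and the count says nothing of the members as a group. By limma at an unadjusted p under 0.05, 1 member was higher, Hoxa10, and 2 were lower. Limma-voom on the recovered fragments called Hoxa10 as past 2-fold and 2 members lower. No share of all genes is given at an unadjusted p or by limma-voom, here or below, and nothing is read from those counts. At any fold 1 of the 10 was higher and 2 lower, against 28.7% and 23.1% of all genes, and 4 did not overlap between the lines, against 60.8%. A wider test of the 15327 genes with a mean above 0.1 FPKM over all 14 samples, without the 1 FPKM limit, took in 19 members and called 1 higher and 4 lower, against 5.57% and 4.35% of all genes. At any fold change, 3 of the 19 were higher and 6 lower, against 25.1% and 19.5%. Values for members below 1 FPKM come from this wider test. In bulk RNA, fewer cells expressing a gene and less RNA per cell cannot be told apart.

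Hoxa5 (ENSMUSG00000038253; chromosome 6, 52201754 to 52204587, - strand, GRCm38), a central Hox gene needed in lung and gut development, had 0.917, 0.973 and 0.891 FPKM in the KMF samples and 0.142, 0.0817 and 0.0952 FPKM in FAK KO. The groups lay far apart, differing by -2.33 on the log2 scale (standard error 0.19, adjusted p = 7.73e-05). Its neighbour Hoxa6 (ENSMUSG00000043219; chromosome 6, 52206288 to 52208722, - strand) had 1.18, 1.97 and 1.10 FPKM in KMF and 0.0760, 0.219 and 0.286 FPKM in FAK KO. KMF sample 2 was the highest, and without it the groups still did not overlap. The log2 fold change of Hoxa6 was -2.40 (standard error 0.35, adjusted p = 6.33e-04). Hoxa7 (ENSMUSG00000038236; chromosome 6, 52214491 to 52221854, - strand), next in the row, had 1.22, 0.829 and 0.907 FPKM in KMF and 0.131, 0.113 and 0.0528 FPKM in FAK KO, a log2 difference of -2.45 (standard error 0.24, adjusted p = 1.98e-04). Antisense Hoxaas3 shares 586 bases with Hoxa7, which the counts cannot separate by strand. Hoxa5 and Hoxa6 share no exonic bases with another gene. Hoxa3, farther toward the 3′ end, was lower by the same measure (-0.90, standard error 0.23, adjusted p = 0.0151), from a mean of 0.266 FPKM in KMF to 0.0973 FPKM in FAK KO (adjusted p = 0.0589 without KMF sample 2), and 27.1% of its exonic bases are shared with other genes.

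Hoxa10 (ENSMUSG00000000938; chromosome 6, 52231197 to 52240854, - strand), which specifies uterine identity and is required for implantation, moved the other way. It had 1.10, 1.05 and 1.10 FPKM in KMF and 2.41, 2.17 and 2.09 FPKM in FAK KO, every FAK KO sample above every KMF sample, with a log2 difference of 0.97 (standard error 0.12, adjusted p = 3.05e-04), just short of the 2-fold limit of a call. Hoxa9, the oviduct member of the series and a gene activated in myeloid leukemia, had 0.128, 0.0999 and 0.0878 FPKM in KMF and 0.247, 0.25 and 0.321 FPKM in FAK KO (0.86 on the log2 scale, standard error 0.21, adjusted p = 0.0129). In FAK KO versus KMF, the median of chromosome 6 genes stood 0.29 above the median of all genes on the log2 scale. Whether this shift was even along the chromosome was not tested. With each chromosome centred on its median in each sample, Hoxa10 was still higher at 0.64 (adjusted p = 0.00279) and Hoxa9 was at 0.52 (adjusted p = 0.101), no longer past the threshold. Centring left Hoxa5, Hoxa6 and Hoxa7 lower, at -2.67, -2.73 and -2.79.

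Hoxa13, the most posterior gene of Hoxa, was seen almost entirely in KMF in this comparison, with 40 fragments in KMF, 2 in FAK KO and 5 in FAK-WT. Its KMF to FAK KO ratio was 18.2 (4.73 to 156), and a test with no filter on low values gave -1.36 on the log2 scale (standard error 0.20, adjusted p = 0.00230).

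Hoxc9 (ENSMUSG00000036139; chromosome 15, 102976439 to 102985099, + strand), a patterning gene of the thoracic skeleton, had 1.39, 1.54 and 1.19 FPKM in KMF and 0.238, 0.162 and 0.241 FPKM in FAK KO. Every FAK KO sample was far below every KMF sample, and the log2 fold change was -2.24 (standard error 0.22, adjusted p = 7.04e-05). The gene on its 3′ side, Hoxc8, had 0.356, 0.209 and 0.280 FPKM in KMF and 0.314, 0.328 and 0.273 in FAK KO, with overlapping groups and a 95% interval of -0.39 to 0.59 for the log2 difference. Hoxc10, on its 5′ side, was lower at -0.86 (standard error 0.29, adjusted p = 0.0473), with an adjusted p under 0.05 in 2 of the 6 fits that left out a sample. Hoxc4, Hoxc6 and Hoxc13 overlapped between the lines, with differences of -0.01, 0.11 and 0.06 on the log2 scale and intervals of -0.26 to 0.24, -0.09 to 0.31 and -0.22 to 0.35. Hoxd8 had 24.1, 23.4 and 16.5 FPKM in KMF and 18.8, 19.8 and 20.9 in FAK KO, and Hoxd9 had 25.4, 25.2 and 17.7 and 18.4, 18.9 and 20.4. The FAK KO values of both genes fell between KMF 3 and the other KMF samples, and the intervals were -0.40 to 0.22 and -0.53 to 0.08. Over the 19 members the median difference was 0.01, against 0.05 over all genes, and 10 members did not overlap between the lines, against 55.6% of all genes.

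**Figure D2:**
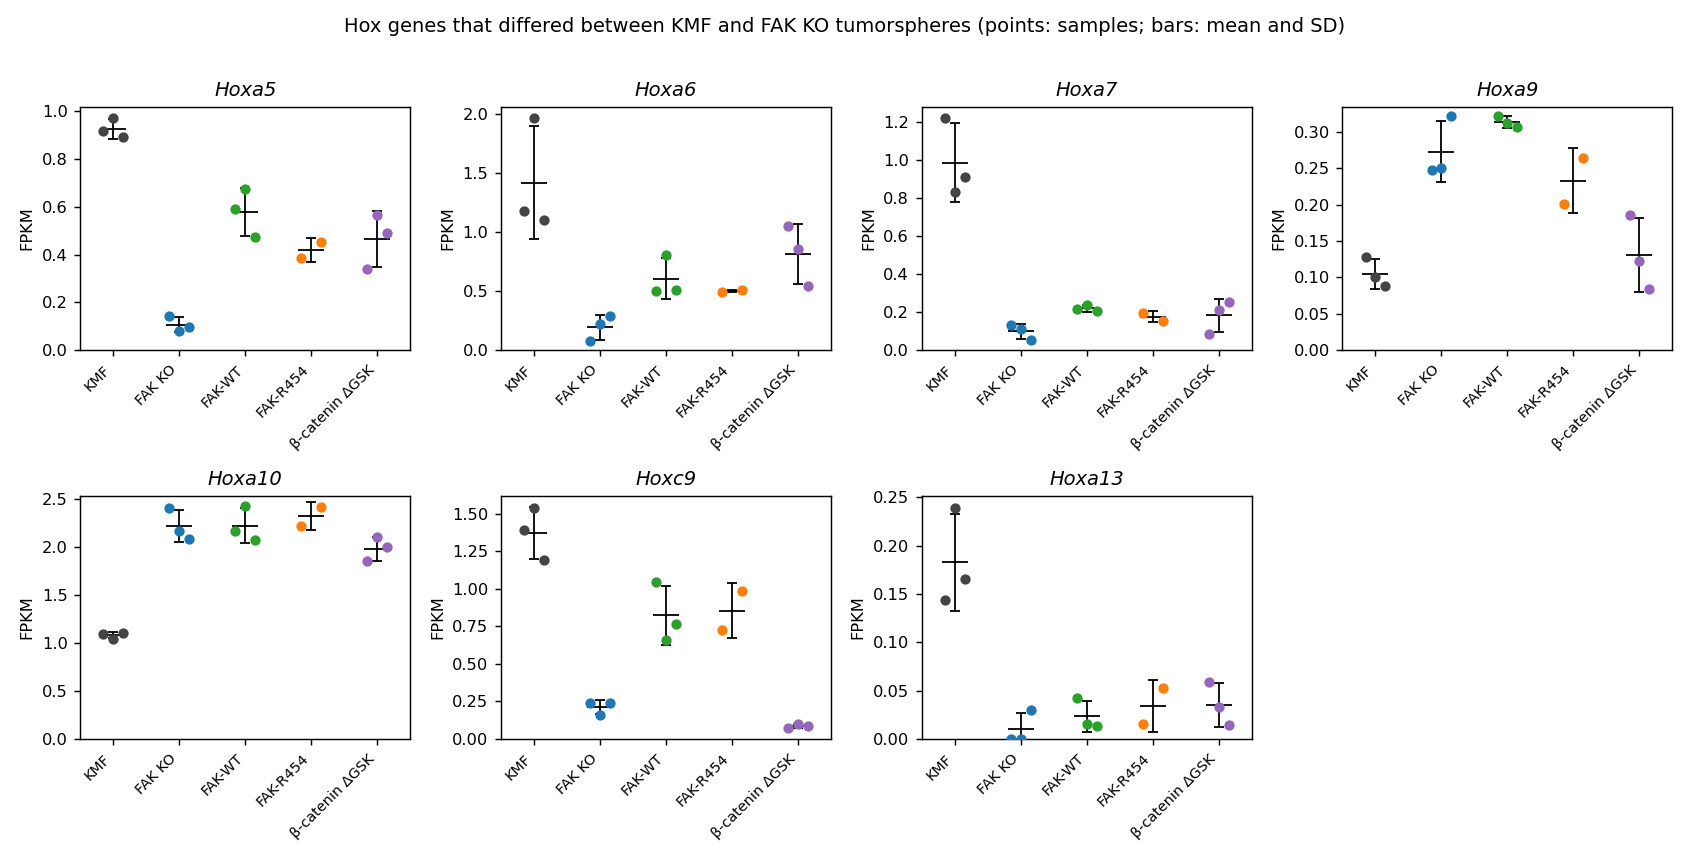
FPKM of 7 Hox genes in each sample of the 5 lines, with points for samples and bars for the mean and SD. Hoxa5, Hoxa6, Hoxa7 and Hoxc9 are high in KMF and low in FAK KO, Hoxa9 and Hoxa10 are the reverse, and Hoxa5, Hoxa6 and Hoxc9 sit in between in FAK-WT.

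With GFP-FAK re-expressed in the clone, 3 of the genes that were low in FAK KO, Hoxa5, Hoxa6 and Hoxc9, were called higher in the wider test, and none of the 3 reached the KMF mean. Hoxa3, also low in FAK KO, passed at 0.88 on the log2(FPKM + 0.1) scale and was called by limma-voom on genes with 10 or more fragments (1.41, adjusted p = 0.0130), Hoxa9 and Hoxa10 overlapped with FAK KO, and Hoxa7 did not pass the wider test. Among the 8 members above 1 FPKM, 0 were called in either direction at 2-fold, against 2.91% higher and 1.71% lower of all genes, while 3 were higher and 0 lower at an adjusted p under 0.05 of any fold, against 15.6% and 25.2%. Of the 8, 4 did not overlap, against 56.1%. Limma-voom on the fragments also called 0 of the 8, and by limma at an unadjusted p under 0.05 the count was 3 higher and 0 lower. In the wider test, 3 of 19 members were called higher and 0 lower, against 3.58% and 2.19%, with 7 higher and 0 lower once fold size was set aside, against 13.4% and 19.3%. The 6 comparisons share samples, FAK KO standing in 4 of them, so a low or high FAK KO value enters several.

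Hoxa5 had 0.589, 0.675 and 0.475 FPKM in FAK-WT, all above the 0.0817 to 0.142 FPKM of FAK KO and below the 0.891 to 0.973 FPKM of KMF. The log2 fold change over FAK KO was 1.72 (standard error 0.22, adjusted p = 0.00197). Hoxc9 had 1.05, 0.659 and 0.764 FPKM in FAK-WT, again between FAK KO and KMF without overlap with either, at 1.55 over FAK KO (standard error 0.23, adjusted p = 0.00310). Hoxa6 had 0.499, 0.810 and 0.510 FPKM in FAK-WT, at 1.31 over FAK KO (standard error 0.33, adjusted p = 0.0229). FAK-WT sample 2 was the highest, and without it the Hoxa6 call was lost (adjusted p = 0.0776). Without FAK KO sample 1 the size of the Hoxa6 difference fell under the 2-fold limit (0.98). Hoxa7 had 0.215, 0.238 and 0.204 FPKM, above every FAK KO sample, with a difference of 0.70 that did not pass (adjusted p = 0.0651, 95% interval 0.12 to 1.28). It passed with chromosomes centred (0.86, adjusted p = 0.0434) and by limma-voom on genes with 10 or more fragments (1.15, adjusted p = 0.0438). Hoxa3 rose by 0.88 (adjusted p = 0.0297), to a mean of 0.261 FPKM against 0.266 in KMF, and leaving out a sample kept this in 1 of 6 fits. Hoxa10 had 2.17, 2.43 and 2.07 FPKM, with an interval of -0.27 to 0.27 around a difference of 0.00.

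Of the Hoxc genes above 1 FPKM, Hoxc4, Hoxc6 and Hoxc13 rose by smaller amounts, and Hoxc5 did not pass, at 0.05 (adjusted p = 0.837). Hoxc4 rose from 2.55, 2.5 and 2.91 FPKM in FAK KO to 3.26, 3.67 and 3.80 in FAK-WT (0.42, adjusted p = 0.0182), Hoxc6 from 6.74, 6.62 and 6.12 to 7.80, 7.66 and 7.67 (0.25, adjusted p = 0.0278), and Hoxc13 from 6.24, 5.39 and 5.86 to 7.49, 7.22 and 7.81 (0.36, adjusted p = 0.0104). The groups did not overlap for any of the 3 genes, but of the 6 fits that left out a sample, 2 kept Hoxc4, 2 kept Hoxc6 and 4 kept Hoxc13 past the threshold (adjusted p up to 0.0920, 0.137 and 0.0600). The genes of chromosome 15, which also carries Ptk2, had a median 0.37 above that of all genes on the log2 scale in this comparison. With chromosomes centred, Hoxc4 was at 0.10, Hoxc13 at 0.05 and Hoxc6 reversed to -0.07 (adjusted p = 0.513), none past the threshold. Hoxc9 remained higher at 1.23 (adjusted p = 0.00826). Over the 19 members the median difference was 0.35, against -0.06 over all genes, and 10 did not overlap, against 50.5% of all genes.

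In FAK-R454, with kinase-inactive FAK, Hoxa5 and Hoxc9 were also above FAK KO. Hoxa5 had 0.384 and 0.454 FPKM in the 2 FAK-R454 samples and Hoxc9 had 0.728 and 0.984 FPKM, both above every FAK KO sample. Hoxa6 had 0.494 and 0.506 FPKM, close to the lower FAK-WT samples. Hoxa3, at a mean of 0.302 FPKM, was 1.03 over FAK KO and did not pass the wider test (adjusted p = 0.0596). Limma-voom on genes with 10 or more fragments called Hoxa3 higher (1.61, adjusted p = 0.0147). Against FAK KO, Hoxa5 was 1.34 higher (standard error 0.26, adjusted p = 0.0213) and Hoxc9 1.61 higher (standard error 0.24, adjusted p = 0.00984), while Hoxa6 did not pass at 1.11 (adjusted p = 0.0937). With the replicate number as a block, Hoxa5 no longer passed (adjusted p = 0.0564) and Hoxa6 was called. Without the block, Hoxa5 and Hoxc9 were the 2 members of 19 called higher in the wider test, with 0 lower, against 2.13% and 1.02% of all genes. At any fold 3 were higher and 0 lower, against 6.83% and 6.19%, and 12 did not overlap, against 50.8%. Of the 8 members above 1 FPKM, 0 were called by limma or limma-voom, against 1.93% and 0.812% of all genes by limma, and at an unadjusted p under 0.05 there were 3 higher and 0 lower. At any fold 2 of the 8 were higher and 0 lower, against 9.78% and 9.89%, and 3 did not overlap, against 55.1%. Both calls rest on 2 samples, and without either FAK-R454 sample 0 members were called higher in the wider test, while 1 was without FAK KO sample 3. Hoxc4 had 3.70 and 3.84 FPKM (0.49 over FAK KO, adjusted p = 0.0210) and Hoxc6 had 8.04 and 8.07 FPKM (0.31, adjusted p = 0.0346). Of the 5 fits that left out a sample, 1 kept Hoxc4 and 2 kept Hoxc6. With chromosomes centred, neither passed (0.35, adjusted p = 0.0648, and 0.16, adjusted p = 0.214), the median of chromosome 15 being 0.17 above that of all genes.

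Set against each other, FAK-WT and FAK-R454 differed in 0 of the 19 members at any fold change by limma in the wider test, against 2.14% of all genes higher and 2.83% lower in FAK-WT. At 2-fold the shares of all genes were 0.692% and 0.822%. Of the 7 members above 1 FPKM, 0 were called at 2-fold, against 0.696% and 0.747%, and 0 at any fold, against 3.38% and 4.44%. Of the 19, 8 did not overlap between the lines, against 44.7%, and of the 7, 2 did not, against 48.5%. At an unadjusted p under 0.05 there were 2 members, Hoxc12 and Hoxc13, both higher in FAK-WT, and limma-voom called 0. The 95% interval of the log2 difference was -0.13 to 0.89 for Hoxa5, -0.39 to 0.80 for Hoxa6, -0.65 to 0.53 for Hoxc9 and -0.34 to 0.22 for Hoxa10. A difference within these intervals could not be resolved with 3 and 2 samples, so the kinase-inactive and wildtype lines are not shown to be alike. Hoxc12 had the widest separation, at 0.780, 0.687 and 0.957 FPKM in FAK-WT and 0.314 and 0.429 in FAK-R454, a difference of 0.95 that did not pass (adjusted p = 0.0672).

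With active β-catenin in the clone, Hoxa5 and Hoxa6 were higher and 5 genes of Hoxc and 1 of Hoxd lower than in FAK KO at any fold in the wider test. Hoxc9, which rose with GFP-FAK, was lowest in this line. Hoxd8 was lower than in FAK KO in every sample, and Hoxc13 was higher. Of the 8 members above 1 FPKM, 0 were called higher and 1, Hoxc5, lower, against 5.13% and 6.99% of all genes, and limma-voom gave the same counts. Hoxc5 passed the filter on low values only through FAK KO, so that a call could only be lower, and nothing is read from this count. At any fold, 1 was higher and 4 lower at an adjusted p under 0.05, against 23.7% and 34.4%. At an unadjusted p under 0.05 the count was also 1 higher and 4 lower. Of the 8, 6 did not overlap between the lines, against 64.2%. The wider test called 2 of 19 higher and 3 lower, against 5.39% and 8.87%, and at any fold 3 higher and 7 lower, against 20.2% and 31.2%.

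Hoxa5 had 0.338, 0.567 and 0.489 FPKM in β-catenin ΔGSK, at 1.44 over FAK KO (standard error 0.25, adjusted p = 0.00192). Hoxa6 had 1.05, 0.856 and 0.544 FPKM, at 1.68 (standard error 0.34, adjusted p = 0.00480). All 3 samples lay above FAK KO for both genes, and every fit that left out a sample kept both calls. Hoxa7 had 0.0867, 0.213 and 0.251 FPKM, overlapping FAK KO (0.48, adjusted p = 0.239). Hoxa9 fell to 0.186, 0.122 and 0.0843 FPKM (-0.71, adjusted p = 0.0429), with an adjusted p under 0.05 in 1 of the 6 fits that left out a sample. Hoxa10 had 1.85, 2.10 and 2.00 FPKM, with a difference of -0.15 (adjusted p = 0.289).

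In Hoxc, 5 genes were lower and 1 was higher at any fold in the wider test. Hoxc8 (ENSMUSG00000001657; chromosome 15, 102990607 to 102994111, + strand), a gene of thoracic identity, had 0.314, 0.328 and 0.273 FPKM in FAK KO and 0.0634, 0.0886 and 0.0611 FPKM in β-catenin ΔGSK, a difference of -1.24 (standard error 0.22, adjusted p = 0.00210). Its level was also below every sample of the other 3 lines. Hoxc9 fell from the FAK KO range of 0.162 to 0.241 FPKM to 0.0742, 0.0995 and 0.0859 FPKM (-0.74, adjusted p = 0.0295), passing in 1 of 6 fits that left out a sample. Hoxc5 (ENSMUSG00000022485; chromosome 15, 102967443 to 103017429, + strand) had 0.841, 1.02 and 1.33 FPKM in FAK KO and 0.338, 0.552 and 0.512 in β-catenin ΔGSK, at -1.04 (standard error 0.24, adjusted p = 0.00568). Its size fell under the 2-fold limit without FAK KO sample 3 or β-catenin ΔGSK sample 1. Hoxc6 had 4.97, 5.68 and 4.73 FPKM (-0.34, adjusted p = 0.0150) and Hoxc4 had 1.69, 2.32 and 2.05 FPKM (-0.38, adjusted p = 0.0429, and 0.0541 in the wider test), and of the fits that left out a sample 3 of 6 kept Hoxc6 and 1 of 6 kept Hoxc4 (adjusted p up to 0.0687 and 0.174). Hoxc12 had 0.137, 0.229 and 0.428 FPKM against 0.580, 0.484 and 0.797 in FAK KO, lower at -1.04 (adjusted p = 0.0279) with sample 3 of β-catenin ΔGSK close to FAK KO, and it passed in 2 of 6 such fits. Hoxc13 was the exception, with 8.33, 7.44 and 7.18 FPKM, above every FAK KO sample (0.39, standard error 0.09, adjusted p = 0.00722), at the other end of the cluster from Hoxc4.

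Hoxd8 (ENSMUSG00000027102, chromosome 2, 74704615 to 74707933, + strand) had 15.4, 13.2 and 12.2 FPKM in β-catenin ΔGSK. In FAK KO it had 18.8, 19.8 and 20.9 FPKM. The groups did not overlap and the difference was -0.55 (standard error 0.10, adjusted p = 0.00127). Its neighbour Hoxd9 (ENSMUSG00000043342, chromosome 2, 74697727 to 74700208, + strand) had 17.4, 17.8 and 16.5 FPKM against 18.4, 18.9 and 20.4. The Hoxd9 difference, also without overlap, was -0.16 (adjusted p = 0.0878). Hoxd4 had 1.18, 0.908 and 0.796 FPKM and did not differ beyond its spread (95% interval -0.58 to 0.25). The summed level of all Hox genes was 51.9 ± 2.86 FPKM in β-catenin ΔGSK and 61.2 ± 2.21 FPKM in FAK KO (mean ± SD, n = 3 each). Chromosomes 2 and 15 shifted little here, their medians being 0.04 and 0.10 above that of all genes. Over the 19 members the median difference was -0.21, against -0.11 over all genes, and 12 did not overlap, against 59.6% of all genes.

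**Figure D3:**
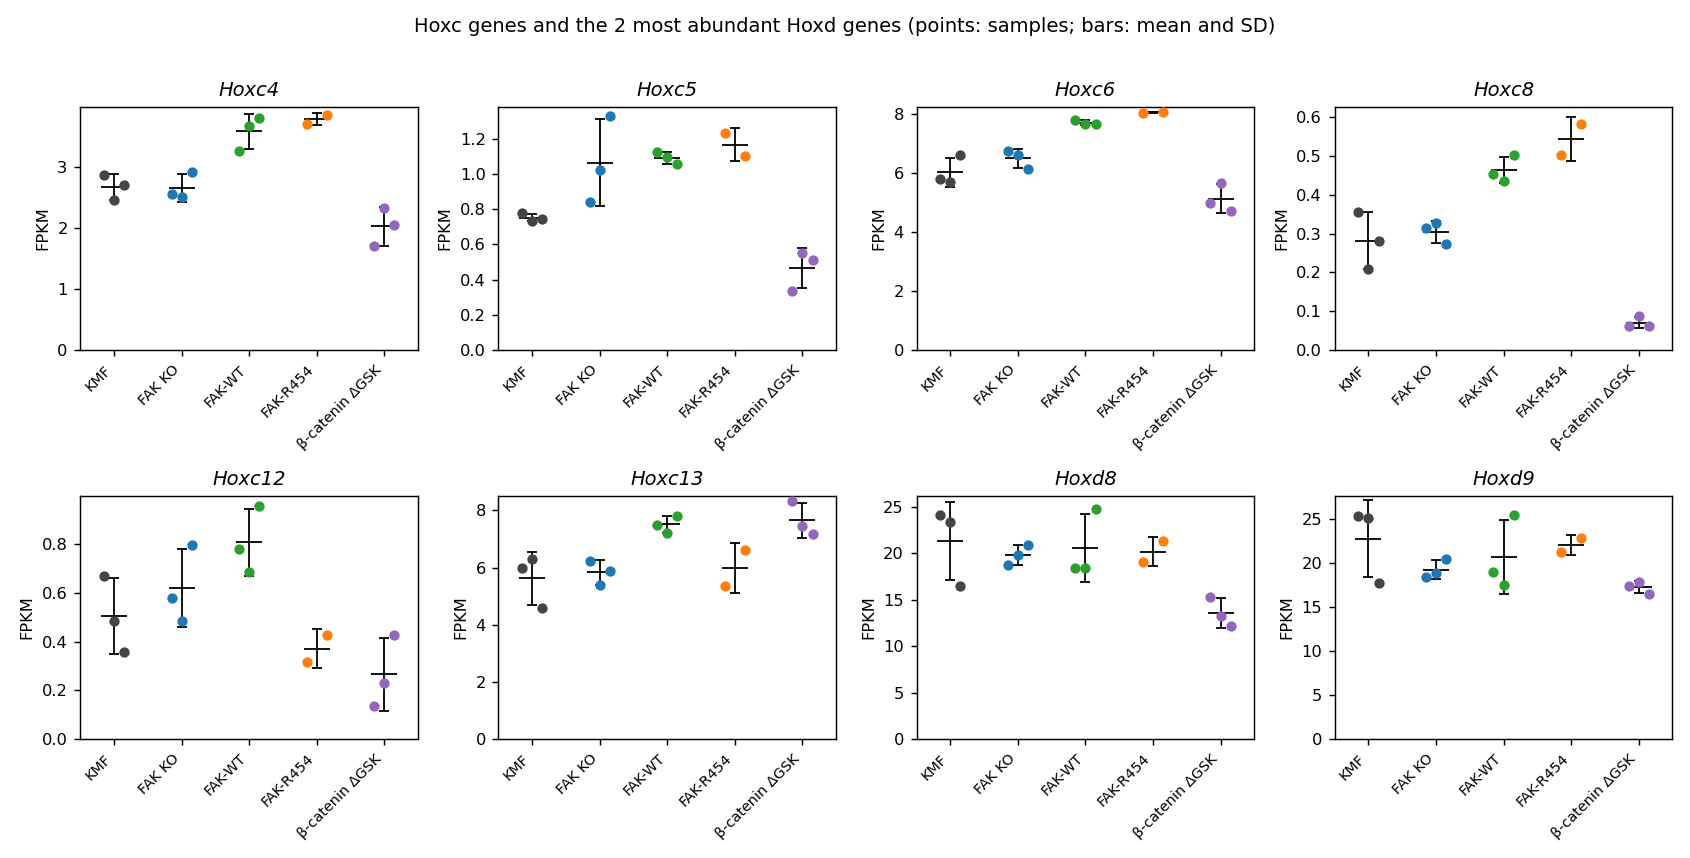
FPKM of 6 Hoxc genes and of Hoxd8 and Hoxd9 in each sample of the 5 lines, with bars for the mean and SD. Hoxc4, Hoxc5, Hoxc6, Hoxc8 and Hoxd8 are lowest in β-catenin ΔGSK, Hoxc13 is highest in FAK-WT and β-catenin ΔGSK, and KMF sample 3 and FAK-WT sample 3 stand apart in Hoxd8 and Hoxd9.

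Comparison of FAK-WT with KMF shows where the re-expressing line and the parental cells remain apart. Hoxa9 and Hoxa10 were higher and Hoxa5, Hoxa6, Hoxa7 and Hoxc9 lower in FAK-WT. Of the 9 members above 1 FPKM, 0 were called higher and 1, Hoxa6, lower, against 3.82% and 2.11% of all genes. Hoxa6 and Hoxc9 passed the filter on low values only through KMF and Hoxc5 only through FAK-WT, which fixed their directions, and nothing is read from the counts over these 9. By limma 5 were higher and 2 lower at an unadjusted p under 0.05, and limma-voom called 1 higher, Hoxa10, and 1 lower. The wider test called 2 of 19 higher and 2 lower, against 4.98% and 2.37%. At any fold 5 of the 9 were higher and 2 lower, against 18.2% and 23.5%, and 7 of the 19 higher and 4 lower, against 16.4% and 18.6%. Lines did not overlap in 7 of the 9, against 55.5%, or in 13 of the 19, against 50.3%. Hoxa9 had 0.322, 0.312 and 0.306 FPKM in FAK-WT (1.01, adjusted p = 0.00501), and Hoxa10 was 0.97 higher (adjusted p = 6.07e-04). Hoxa7 was -1.75 (adjusted p = 7.05e-04), Hoxa6 -1.09 (adjusted p = 0.0154), Hoxc9 -0.69 (adjusted p = 0.0241) and Hoxa5 -0.61 (adjusted p = 0.0230) on the same scale. The Hoxa6 call was lost without FAK-WT sample 1 or 3, and without KMF sample 2 its size fell under the 2-fold limit (-0.84). Hoxa5 did not pass without KMF sample 1 or 2 or FAK-WT sample 1 (adjusted p up to 0.0744), and Hoxc9 without KMF sample 1 or 2 or FAK-WT sample 2 or 3 (up to 0.0922). Hoxa13 was lower with no filter on low values, at -1.19 (adjusted p = 0.00509). Hoxc4, Hoxc5, Hoxc6 and Hoxc13 were higher in FAK-WT by 0.41, 0.48, 0.35 and 0.42, with a median of chromosome 15 that was 0.26 above that of all genes, and none of the 4 passed with chromosomes centred. Leaving out a sample kept Hoxc6 past the threshold in 6 of 6 fits, Hoxc4 in 4, Hoxc5 in 3 and Hoxc13 in 2.

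**Figure D4:**
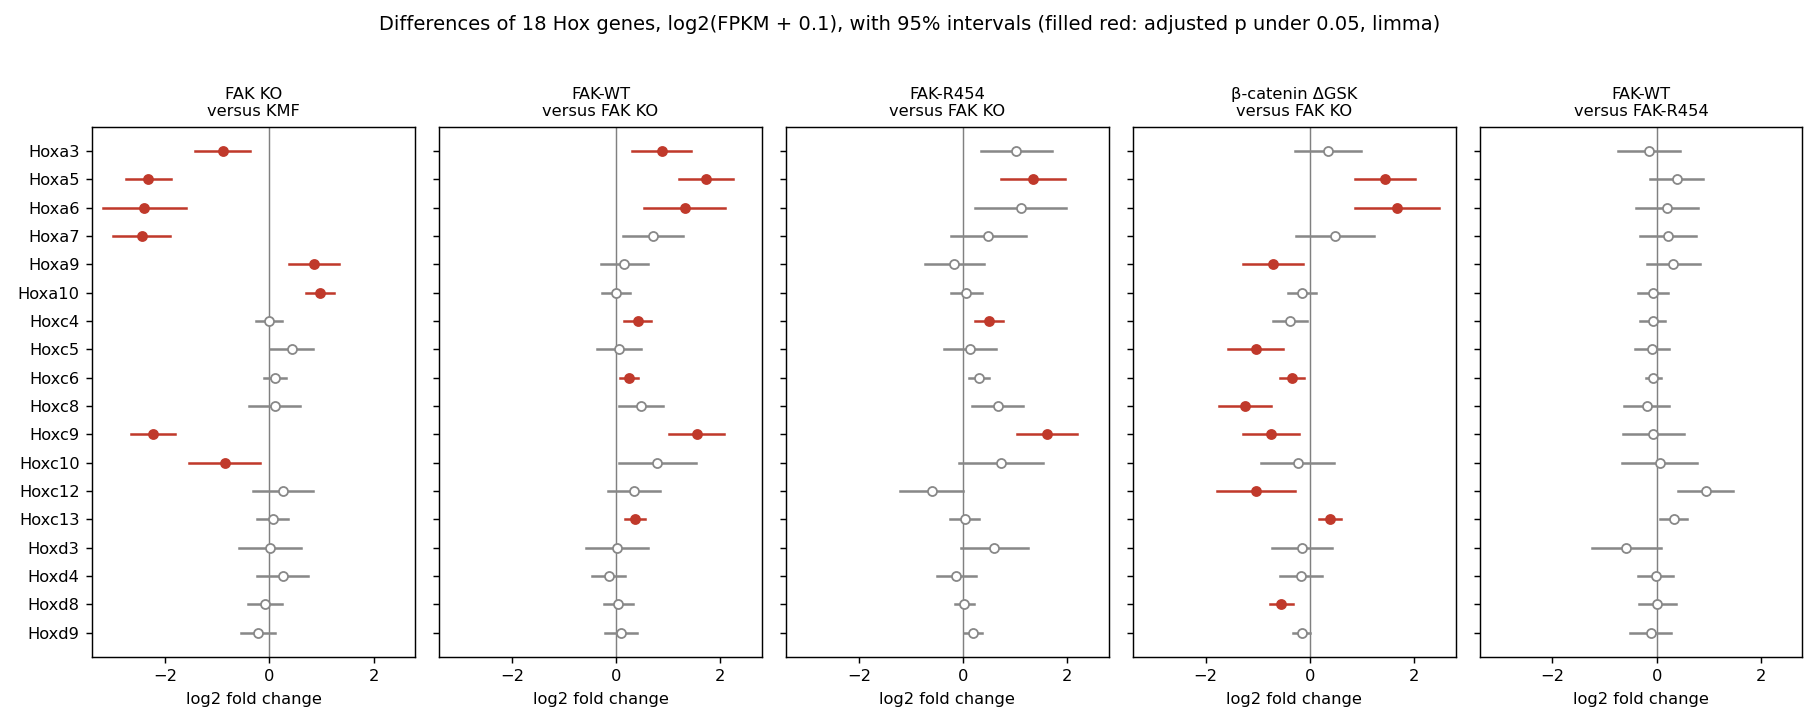
Log2 fold changes of 18 of the 19 Hox genes with a mean above 0.1 FPKM over all samples in 5 of the 6 comparisons (FAK-WT versus KMF is not drawn), with 95% intervals and filled red points where the adjusted p of limma is under 0.05. Hoxa5, Hoxa6, Hoxa7 and Hoxc9 lie far to the left in FAK KO versus KMF, and no point is filled in FAK-WT versus FAK-R454.

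Of the noncoding RNAs at Hoxa, Hotairm1 was higher in FAK KO than in KMF and Linchoxa1 lower in β-catenin ΔGSK than in FAK KO, and neither passed in FAK-WT or FAK-R454 versus FAK KO. Of 18 listed names, 14 were in the table (1 of them, D930015M05Rik, lies on chromosome 2 far from Hoxd) and 3 exceeded 1 FPKM, Linchoxa1 and Hotairm1 at Hoxa and Hoxd3os1 at Hoxd. Hotair, the Hoxc transcript known from metastatic tumors, stayed between 0.0115 and 0.0444 FPKM in the line means, and Hottip was at 0 throughout. Linchoxa1 (also named Halr1; chromosome 6, 52102949 to 52113684, + strand), which is known as a retinoic acid induced RNA, had 23.3, 14.4 and 14.6 FPKM in FAK KO and 0.896, 1.39 and 1.53 FPKM in β-catenin ΔGSK. The difference was -3.67 (standard error 0.23, adjusted p = 2.93e-06), larger than that of any of the 19 Hox genes tested in this comparison. It had 26.9, 24.9 and 28.6 FPKM in KMF (-0.65 for FAK KO versus KMF, adjusted p = 0.0115). FAK-WT and FAK-R454 differed in it, at 15.9, 16.9 and 13 FPKM and 25.2 and 23.8 FPKM, with all FAK-WT samples lower (-0.68, adjusted p = 0.0254).

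Hotairm1 (chromosome 6, 52156902 to 52162119, + strand), a myeloid-associated RNA of the Hoxa cluster, had 0.241, 0.553 and 0.636 FPKM in KMF and 5.45, 3.93 and 3.96 FPKM in FAK KO, a difference of 3.04 (standard error 0.28, adjusted p = 5.39e-05). It passed the filter on low values only through FAK KO, so that a call could only be higher. It had 4.37, 3.81 and 4.69 FPKM in FAK-WT and 4.44 and 6.15 in FAK-R454, and was lower in β-catenin ΔGSK at 2.72, 1.99 and 2.19 FPKM (-0.92 versus FAK KO, adjusted p = 0.00143). Hoxd3os1 was higher in FAK KO than KMF by 0.53 (adjusted p = 0.00892) and was -0.96 in β-catenin ΔGSK versus FAK KO (adjusted p = 4.18e-04).

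**Figure D5:**
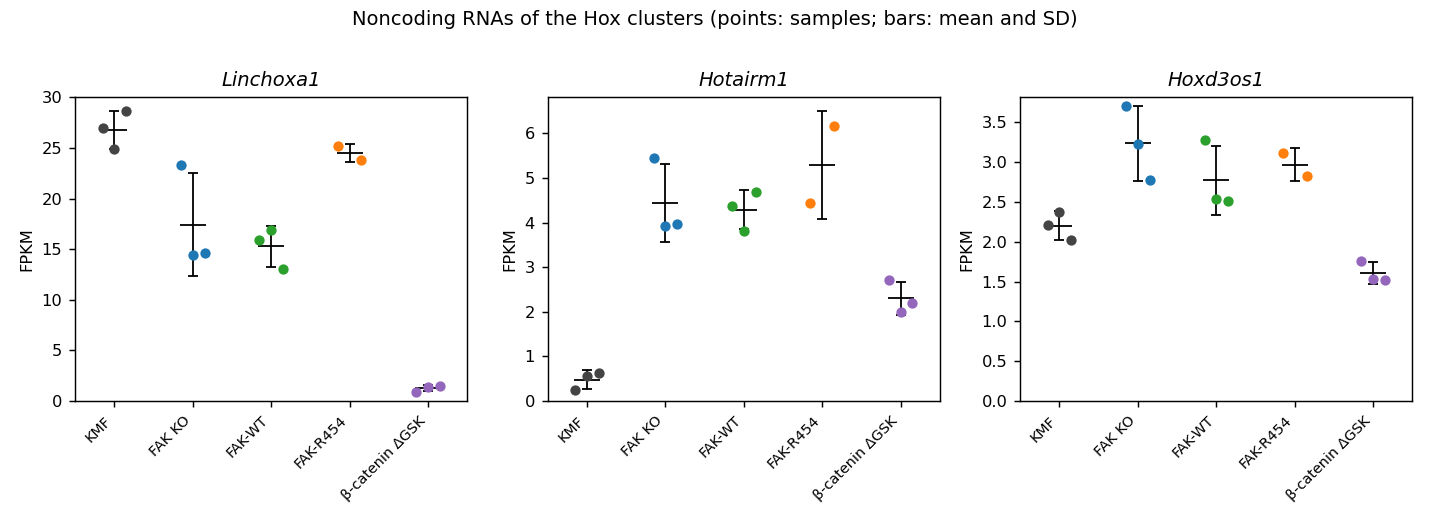
FPKM of 3 noncoding RNAs of the Hox clusters in each sample of the 5 lines, with bars for the mean and SD. Linchoxa1 is near 1 FPKM in β-catenin ΔGSK and above 13 FPKM elsewhere, and Hotairm1 is below 1 FPKM in KMF alone.

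The genes that flank the Hoxa and Hoxc clusters were compared in the same way. Of the 4 expressed neighbours of Hoxa (Skap2, Snx10, Hibadh and Tax1bp1), all 4 were higher in FAK KO than in KMF at any fold, with a median of 0.71 on the log2 scale and 0 past 2-fold, against 28.7% of all genes higher at any fold. Against FAK KO, 3 of the 4 were lower in each of β-catenin ΔGSK, FAK-WT and FAK-R454 at any fold and 0 higher (medians -0.42, -0.51 and -0.33), against 34.4%, 25.2% and 9.89% of all genes lower. Of the 7 expressed neighbours of Hoxc, 4 rose from FAK KO to FAK-WT at any fold and 0 past 2-fold, against 15.6% at any fold. In FAK-R454 versus FAK KO 2 were higher and 0 lower, against 9.78% and 9.89%, and in β-catenin ΔGSK versus FAK KO 2 higher and 3 lower, near the 23.7% and 34.4% of all genes. Within Hoxa, between these flanks, Hoxa5, Hoxa6 and Hoxa7 were lower and Hoxa10 higher in FAK KO than in KMF.

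The partner proteins and chromatin regulators of Hox genes were mostly expressed, and few were called at 2-fold, as were few of all genes (0.696% to 5.13% higher and 0.747% to 6.99% lower across the 6 comparisons), so nothing is read from the low counts. Of 9 TALE cofactors, 8 exceeded 1 FPKM and 0 were called in any of the 6 comparisons. At any fold change in β-catenin ΔGSK versus FAK KO, Meis1, Pbx4 and Pbx3 rose by 0.41, 0.44 and 0.50, and 2 were lower, among them Meis3 at -0.98, against 23.7% of all genes higher and 34.4% lower. All 16 PRC1 genes were expressed and 0 were called in any comparison. Of 11 PRC2 genes, 1 was called, Phf19, a Polycomb-like protein that recruits PRC2, lower in FAK KO than KMF at -1.05 (adjusted p = 2.06e-04), where 3.97% of all genes were. Of 13 trithorax and COMPASS genes, 1 was called, Kdm6a, the X-linked demethylase that removes the Polycomb mark from Hox genes. It had 25.1 ± 1.94 FPKM (SD, n = 3) in FAK KO and 7.79 ± 0.411 FPKM (SD, n = 3) in β-catenin ΔGSK, a difference of -1.67 (adjusted p = 7.71e-07), in a comparison that called 6.99% of all genes lower. Of the 6 ParaHox genes, the Hox relatives outside the clusters, 0 exceeded 1 FPKM and 5 were at 0 throughout.

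Among genes of retinoic acid transport, synthesis and signaling, Stra6, Aldh1a2, Rarb and Rdh10 were higher and Cyp26b1 lower in β-catenin ΔGSK than in FAK KO. Of 11 such genes tested in β-catenin ΔGSK versus FAK KO, 4 were called higher and 1 lower, against 5.13% and 6.99% of all genes, with a median difference of 0.60 against -0.09 over all genes. Stra6, Aldh1a2 and Rarb passed the filter on low values only through β-catenin ΔGSK and Cyp26b1 only through FAK KO, which fixed their directions. The wider test called 5 of 14 higher and 2 lower, against 5.39% and 8.87%. Stra6, the retinol uptake receptor, had 0.140, 0.337 and 0.221 FPKM in FAK KO and 40.9, 47.7 and 48.5 FPKM in β-catenin ΔGSK (7.14, adjusted p = 2.95e-08). Aldh1a2, which makes retinoic acid, was 1.95 higher (adjusted p = 1.35e-05), the receptor gene Rarb 1.77 (adjusted p = 1.23e-04) and the retinol dehydrogenase Rdh10 1.19 (adjusted p = 2.83e-06). Cyp26b1, which degrades retinoic acid, was lower at -2.71 (adjusted p = 2.08e-06). In the same comparison Hotairm1 and Linchoxa1 were lower. Of the Hoxa genes, Hoxa5 and Hoxa6 were higher and Hoxa9 lower at any fold in the wider test. The part of retinoic acid in these differences was not tested. Between the other lines, Rdh10 was 1.08 higher and Aldh1a1 was -1.05 in FAK-WT versus KMF, Aldh1a1 was -1.17 in FAK-R454 versus FAK KO, and 0 were called in FAK KO versus KMF, FAK-WT versus FAK KO or FAK-WT versus FAK-R454.

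Markers of fibroblasts differed between the lines as well, not all in 1 direction. In FAK KO versus KMF, Dcn was higher by 1.57 (adjusted p = 5.82e-05) and Pdgfra lower at -1.55 (adjusted p = 1.20e-05), and in β-catenin ΔGSK versus FAK KO both were lower, Pdgfra having passed the filter only through FAK KO. Pdgfra was higher than in FAK KO in FAK-WT, by 1.72 (adjusted p = 1.21e-04), and in FAK-R454, by 1.53 (adjusted p = 1.42e-04). In these comparisons it moved in the direction of Hoxa5 and Hoxc9. In β-catenin ΔGSK it moved opposite to Hoxa5 and in the direction of Hoxc9 (-0.74, adjusted p = 0.0295 in the wider test). The summed level of Pdgfra, Dcn and Thy1, most of it Dcn, was 39.3 to 47.3 FPKM in KMF, 89.1 to 125 in FAK KO, 115 to 134 in FAK-WT, 110.5 to 123 in FAK-R454 and 30.5 to 45 in β-catenin ΔGSK. Cd68, a macrophage marker also present in other cells, had means of 3.08, 2.99, 8.62, 4.29 and 1.32 FPKM and the endothelial Pecam1 0.995, 1.02, 1.17, 0.851 and 0.286 FPKM in the same order of lines, while Ptprc, Cdh5 and Kdr were at or near 0. Of the mesothelial and ovarian surface epithelial markers, 6 of 7 tested were higher and 0 lower at any fold in FAK-WT versus FAK KO (median 0.57), against 15.6% and 25.2% of all genes. At 2-fold, Upk3b and Lrrn4 were called higher in FAK-R454 versus FAK KO, Upk3b by 2.96 (adjusted p = 4.30e-05) and Lrrn4 at means of 1.14 against 0.262 FPKM (adjusted p = 0.00684), having passed the filter only through FAK-R454. These were 2 of the 8 tested, with 0 lower, against 1.93% and 0.812% of all genes, and at any fold 4 were higher and 0 lower, against 9.78% and 9.89%. FAK-WT versus FAK-R454 called Upk3b and Lrrn4 lower and 0 of 8 higher, against 0.747% and 0.696%. Lrrn4 again passed the filter only through FAK-R454. At any fold, 4 of these 8 were higher and 2 lower in FAK-WT, against 3.38% and 4.44%. Wt1 and Upk3b were called higher in β-catenin ΔGSK versus FAK KO, by 1.21 (adjusted p = 8.86e-07) and 1.12 (adjusted p = 2.57e-04). That was 2 of 7 tested, with 0 lower, against 5.13% and 6.99% of all genes. At any fold 4 were higher and 2 lower, against 23.7% and 34.4%. The wider test of 10 markers also called Krt7 lower, with 4 higher and 3 lower at any fold, against 20.2% and 31.2%. In FAK KO versus KMF 0 of 7 were called, against 4.04% higher and 3.97% lower of all genes. At any fold 1 of the 7 was higher and 3 lower, against 28.7% and 23.1%. The part of these markers in the Hox differences was not tested. The Müllerian marker Emx2, a homeobox gene of the urogenital tract, was called higher in β-catenin ΔGSK versus FAK KO at 4.40 (adjusted p = 9.12e-07), having passed the filter only through β-catenin ΔGSK, and the other 4 Müllerian markers, Pax8, Pax2, Lhx1 and Ovgp1, did not exceed 1 FPKM in any line.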

How the data were processed

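RNA from 14 tumorsphere samples of 5 lines was sequenced as unstranded poly(A) libraries with paired ends. The values are gene-level FPKM deposited by the authors, on mm10. The submitters' processing notes name CASAVA 1.8, STAR 2.5 and DESeq2, while the study's methods name TopHat2, and which aligner made the table was not settled. FPKM times gene length was a whole multiple of 1 fragment for 100% of values (tolerance 0.01), so fragments were recovered. The study's methods give 3 samples for FAK-R454, of which 2 were analysed here.

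The main test was limma 3.58.1 (R 4.3.3; lmFit and eBayes with trend) on log2(FPKM + 0.1), with only the 2 lines compared, over all genes with a mean above 1 FPKM in either line, after the study's limits of FPKM above 1, adjusted p under 0.05 (Benjamini-Hochberg) and 2-fold. A wider test took all genes with a mean above 0.1 FPKM over the 14 samples. The script was tested on simulated data. The replicate block, limma-voom, other pseudocounts, filters and scalings, chromosome centring and leaving out each sample were alternatives. Tables were handled with pandas 2.3.3 in Python 3.11.15. Ratios of fragments carry exact binomial intervals, which like the limits for a count of 0 cover counting error only.

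Named genes were the 39 members, with every sample's value where a line mean exceeded 1 FPKM or a test without a filter passed, and the called genes of fixed lists, up to 4 per list. Further members and genes were named where they neighbour these. Some genes, 1 Hox gene among them, are counted but not reported by name here. Members and lists were chosen with earlier results of these data known. Coordinates of 38 of 39 members are identical in GENCODE M21.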

Additional observations from a re-analysis of the deposited data

How the results depend on the processing

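Of 42 differences of a Hox gene past an adjusted p of 0.05, 18 stayed past it under every alternative that tested them. Over 731 alternative values, 580 kept direction and side of the threshold, 149 kept direction only, and 2 reversed, both Hoxc6 in FAK-WT versus FAK KO with chromosomes centred (-0.0681 in the main test and -0.0677 in the wider test, against 0.25 uncentred).

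Counts of called Hox genes depended on the filter and the fold limit. In FAK KO versus KMF, 0 higher became 1 at a log2 limit of 0.5 or none, with a pseudocount of 0.01, without a filter, in the wider test and by limma-voom, and 3 by limma-voom on genes with 10 or more fragments, while 2 lower became 1 with a pseudocount of 1, 5 without a filter, 4 in the wider test, 0 with a mean above 2 FPKM and 6 by that limma-voom. In FAK-WT versus FAK KO, 0 higher became 3 without a fold limit, without a filter or in the wider test, and 5 by limma-voom on 10 fragments. In FAK-R454 versus FAK KO, 0 higher became 2 under the same settings and 3 by that limma-voom. In β-catenin ΔGSK versus FAK KO, 0 higher became 1 without a fold limit and 2 without a filter, in the wider test or by that limma-voom, and 1 lower became 2 at a limit of 0.5, 4 with none, 3 without a filter or in the wider test, 5 by that limma-voom, and 0 with a pseudocount of 1, a mean above 2 FPKM or median-of-ratios scaling. In FAK-WT versus KMF, 0 higher became 1 at a limit of 0.5, with a pseudocount of 0.01 or by limma-voom, 5 with no limit, 2 without a filter or in the wider test and 3 by limma-voom on 10 fragments, and 1 lower became 2 at a limit of 0.5 or none, in the wider test or by that limma-voom, 3 without a filter and 0 with a pseudocount of 1 or a mean above 2 FPKM. FAK-WT versus FAK-R454 gave 0 throughout. In the wider test without a fold limit, higher and lower counts became 3 and 6 (FAK KO versus KMF), 7 higher (FAK-WT versus FAK KO), 3 and 7 (β-catenin ΔGSK) and 7 and 4 (FAK-WT versus KMF), where chromosome centring gave 1 higher. The cause of these changes other than the looser or stricter limit itself was not tested.

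Leaving out a sample gave 0 to 1 higher and 2 to 3 lower in FAK KO versus KMF, 0 to 1 lower in β-catenin ΔGSK versus FAK KO, and 0 to 1 higher and 0 to 2 lower in FAK-WT versus KMF. In the wider test it gave 1 to 2 higher and 4 to 5 lower in FAK KO versus KMF, 2 to 4 higher in FAK-WT versus FAK KO, 0 to 3 higher in FAK-R454 versus FAK KO, 2 higher and 1 to 3 lower in β-catenin ΔGSK versus FAK KO (1 without FAK KO sample 3 or β-catenin ΔGSK sample 1), and 1 to 3 higher and 1 to 2 lower in FAK-WT versus KMF. With only 1 FAK-R454 sample left, it is assumed to vary like the other line.

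Same-numbered samples did not deviate together in every pair (correlations of -0.25 to 0.45), so the numbers were not taken to pair samples. With the replicate number as a block, the count of Hox genes called was unchanged in all 6 comparisons: 0 higher and 2 lower (FAK KO versus KMF), 0 and 1 (β-catenin ΔGSK versus FAK KO, FAK-WT versus KMF) and 0 and 0 in the other 3. In the wider test the block also left the counts as they were (5, 3, 2, 5, 0 and 4 genes), but in FAK-R454 versus FAK KO it called Hoxa6 and Hoxc9 in place of Hoxa5 and Hoxc9.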
